A study of Mus musculus with 16 samples.

Results

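The Reg (regenerating) genes were described here in fetal pancreas and in islets of aged mice with and without Tff2, the gene for the secreted trefoil peptide 2. The 7 members, Reg1, Reg2, Reg3a, Reg3b, Reg3d, Reg3g and Reg4, were taken by symbol from 24091 genes listed in both count tables, with no use of their values. Polyadenylated RNA of 16 libraries had been sequenced. Knockout (KO) animals were Pdx1:Cre;Tff2fl/fl, in which the Pdx1 promoter drives Cre. Pdx1 encodes a transcription factor of pancreatic progenitors and, later, of beta cells. Controls were Tff2fl/fl, so that both genotypes carried the floxed alleles and controls had no Cre. The sources used here do not say which exons were removed. Whole pancreata at embryonic day 16.5 (E16.5) came from 3 KO embryos (01, 18 and 19) and 3 control embryos (02, 08 and 13), whose litters are not given. Hand-picked islets came from males of 60 weeks, 5 KO mice (055, 122, 803, 812 and 845) and 5 control mice (052, 826, 829, 857 and 858), each mouse as its own library.

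Reg proteins are small secreted proteins with a C-type lectin fold. Acinar cells of the exocrine pancreas make them for pancreatic juice, and several family members rise steeply in injured or inflamed pancreas and gut, in part through interleukin-6 and interleukin-22 type cytokines and the transcription factor STAT3. Reg1 is a major acinar product and Reg2 is its close relative in mice. Reg3b, also known as pancreatitis-associated protein, and Reg3g are antibacterial lectins of the gut epithelium. Reg3a and Reg3d belong to the same subfamily, and Reg4 is best known from the intestine.

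The 6 genes other than Reg4 lay side by side on chromosome 6 within 97.99 kb, from 78370885 to 78468874 (mm10), and Reg4 lay on chromosome 3 from 98222156 to 98236748. No other listed gene overlapped any of the 7. No stretch of 50 bases was shared between the annotated transcripts of any of the 21 pairs of members, and stretches of 30 bases were shared by 1 pair, Reg3b and Reg3g, at 6 positions. RefSeq promoters (GRCm38.p6, the assembly of mm10) matched all 7 members. The 250 bases before the annotated start are shown for Reg1, by far the most abundant member, and for the 4 genes that stood out together in a single islet library described below. Reg1 is at chr6:78425733-78425982 (plus strand), Reg2 at chr6:78404905-78405154 (plus), Reg3b at chr6:78370635-78370884 (plus), Reg3g at chr6:78468875-78469124 (minus) and Reg3a at chr6:78380459-78380708 (plus). Capitals mark matches to 4 motifs, searched on both strands and chosen after the sequences had been seen. An E-box, the site of basic helix-loop-helix factors, was searched as CACCTG. The composite site of the acinar PTF1 complex was searched as a general E-box, CANNTG, with a second box 6 bases further on that reads TTCCC. The site of STAT factors was searched as TTCNNNGAA, and the TATA box of many strongly expressed genes as TATAAA.
Reg1: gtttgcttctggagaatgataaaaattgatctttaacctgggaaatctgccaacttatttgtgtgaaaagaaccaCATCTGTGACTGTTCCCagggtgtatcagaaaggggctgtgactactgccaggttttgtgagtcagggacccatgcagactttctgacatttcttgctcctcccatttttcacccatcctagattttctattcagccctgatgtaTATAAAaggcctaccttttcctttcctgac
Reg2: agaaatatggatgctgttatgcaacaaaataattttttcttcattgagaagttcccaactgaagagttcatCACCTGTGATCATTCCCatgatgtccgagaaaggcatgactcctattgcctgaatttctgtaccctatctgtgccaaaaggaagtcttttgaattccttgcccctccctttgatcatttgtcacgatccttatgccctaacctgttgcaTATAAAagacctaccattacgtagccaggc
Reg3b: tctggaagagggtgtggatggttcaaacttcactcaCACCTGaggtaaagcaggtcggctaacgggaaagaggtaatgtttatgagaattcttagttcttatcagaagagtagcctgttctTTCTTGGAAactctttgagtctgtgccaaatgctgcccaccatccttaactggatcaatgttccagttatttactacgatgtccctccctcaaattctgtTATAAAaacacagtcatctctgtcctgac
Reg3g: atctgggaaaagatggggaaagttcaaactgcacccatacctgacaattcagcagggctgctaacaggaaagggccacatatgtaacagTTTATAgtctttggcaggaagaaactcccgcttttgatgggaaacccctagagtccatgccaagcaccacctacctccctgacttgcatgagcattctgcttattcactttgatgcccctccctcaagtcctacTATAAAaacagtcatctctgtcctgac
Reg3a: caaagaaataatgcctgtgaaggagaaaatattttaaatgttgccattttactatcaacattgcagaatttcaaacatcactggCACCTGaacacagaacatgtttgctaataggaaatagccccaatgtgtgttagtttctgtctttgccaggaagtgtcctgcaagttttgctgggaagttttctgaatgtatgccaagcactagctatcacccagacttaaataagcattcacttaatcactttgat

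The composite PTF1 letters were found before Reg1 and Reg2 and before no other member, with the first base 175 and 179 bases before the start, against 0.295% of 32851 promoters of the same length. In Reg2 they begin with the E-box letters CACCTG, so these matches overlap. CACCTG was found in 5 of 7 Reg promoters (Reg2, Reg3a, Reg3b, Reg3d and Reg4), against 17.2% of all promoters. The STAT letters were found before Reg3b and Reg3d, 129 and 238 bases before the start, against 7.02% of all promoters. TATAAA lay 27 to 30 bases before the start in Reg1, Reg2, Reg3b and Reg3g, and occurred in 12.4% of all promoters. In Reg3g a further match to TATAAA lay on the other strand. These are matches of letters, and no binding was measured. Since the motifs were chosen after the sequences had been seen, the shares of all promoters are no test of the matches.

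Depth and labels were checked first. Pancreas libraries had 14866194 to 22699934 counted reads and islet libraries 22595400 to 32385042. Levels are given as CPM, the usual read count relative to library size, scaled by TMM, a factor that evens out library composition. Tff2 itself averaged 4.75 ± 4.54 CPM in KO pancreata and 32.2 ± 8.38 CPM in control pancreata (SD, n = 3 each), and 0.277 ± 0.221 CPM in KO islets and 2.44 ± 1.52 CPM in control islets (SD, n = 5 each). Its log2 fold change was -2.80 in pancreata and -3.07 in islets, with edgeR adjusted p of 0.0297 and 0.0884. Islet endocrine genes summed to 167724 to 205112 CPM in the islets. The 30 acinar enzyme genes summed to 59484 to 145738 CPM in pancreata and to 176 to 2572 CPM in the hand-picked islets. None was at 0 in all libraries of a group, but single islet libraries had 0 (KO 845) to 2 (such as control 052) of them at 0. In islets 27 passed the low-count filter. Being whole tissue RNA, these libraries cannot tell fewer cells of a type from less RNA per cell. Islet libraries are separate mice and pancreata separate embryos, so the edgeR tests set group differences against the spread between these animals. Since litters are not given, the embryos may not be independent of each other.

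In fetal pancreas the family was nearly all Reg1. Reads of Reg1 made up 95.9%, 95.5% and 96.3% of all Reg reads in KO pancreata 01, 18 and 19, against 95.4%, 95.8% and 95.1% in control pancreata 02, 08 and 13. Per length, Reg1 had a median of 409 RPKM (CPM per kb of the tabulated gene length) over the 6 pancreata, Reg3d 16.3 RPKM and Reg3g 0.445 RPKM. Reg1 ranged from 207 to 470 RPKM, Reg3d from 8.19 to 21.8 RPKM and Reg3g from 0.232 to 0.656 RPKM, so that these 3 did not overlap in any pancreas. The others were at the limit of detection. Reg2 had 5 reads in the 6 pancreata together, Reg3a 10 and Reg3b 11. Reg4 had no read in the KO pancreata and 3 reads in the control pancreata.

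Neither Reg1 nor Reg3d, the 2 members that passed the low-count filter at E16.5, passed the test of KO against control. Reg1 had 158, 300.0 and 331 CPM in KO pancreata 01, 18 and 19, against 358, 245 and 324 CPM in control pancreata 02, 08 and 13. KO 01 was the lowest of the 6 and the other KO values lay within the control range. The means were 263 ± 92.1 CPM in KO and 309 ± 58.2 CPM in control pancreata (SD, n = 3 each), which is -0.23 ± 0.258 on the log2 scale (SE; adjusted p 0.608 in edgeR). Reg3d, a secreted lectin of the Reg3 subfamily, had 6.36, 13.4 and 11.9 CPM in KO pancreata, against 16.9, 10.1 and 15.8 CPM in control pancreata. Its groups overlapped too, with KO 01 again lowest. The log2 fold change of Reg3d was -0.45 with an SE of 0.288, a 95% interval of -1.01 to 0.12 and an edgeR adjusted p of 0.368. The interval was taken from the SE with a normal distribution, so it is narrower than the F test would give. So 0 of 2 tested members were called, with edgeR, DESeq2 and limma-voom alike, and 0 of 2 had an unadjusted p under 0.05. Of all 14914 genes, 6.43% were called by edgeR and 25.4% had an unadjusted p under 0.05. Reg3g, the gut antibacterial lectin, fell below the filter, with 6, 5 and 3 reads in KO pancreata against 9, 9 and 6 reads in control pancreata. In CPM every KO value lay below every control value, with 0.339 CPM in the highest KO and 0.345 CPM in the lowest control pancreas, a gap far within counting error at 38 reads in all. Groups did not overlap for 31.1% of the genes tested at E16.5, and with no filter Reg3g was not called.

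**Figure D1:**
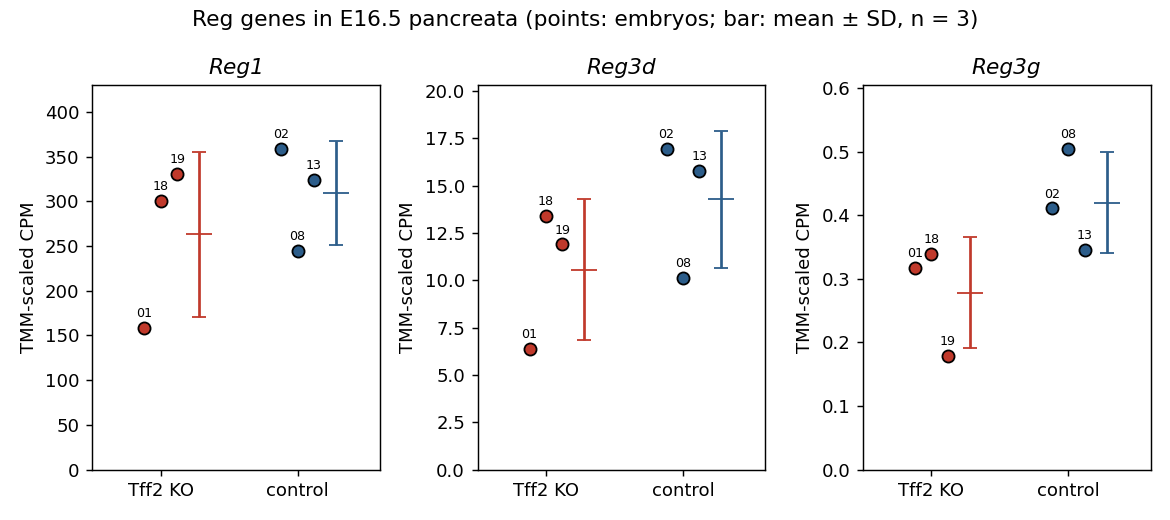
Levels of Reg1, Reg3d and Reg3g in E16.5 pancreata, in TMM-scaled CPM on linear axes that start at 0, with KO embryos left of control embryos, 1 numbered point per embryo and the mean ± SD (n = 3) beside them. KO 01 is lowest for Reg1 (158 CPM) and Reg3d (6.36 CPM), and KO and control values overlap for both.

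Reg1 in the pancreata was also read against the acinar enzyme genes, whose near-identical copies can share reads among themselves. Acinar enzyme genes summed to 59484, 115089 and 101656 CPM in KO pancreata 01, 18 and 19, against 143404, 121832 and 145738 CPM in control pancreata 02, 08 and 13. All KO sums lay below all control sums. The median log2 fold change of the 30 enzyme genes was -0.52, against -0.00 over all genes tested. In edgeR 0 of the 30 were called and 9 had an unadjusted p under 0.05, DESeq2 called 4 lower and limma-voom 1 lower. Of all genes tested, edgeR called 6.43%, and 25.4% had an unadjusted p under 0.05. The median of the 30 was -0.23 without KO 01, with 1 gene called lower, and -0.10 with libraries scaled to pan-epithelial genes, with none called. Set against that sum, Reg1 was 0.266%, 0.261% and 0.325% of it in KO pancreata, against 0.250%, 0.201% and 0.222% in control pancreata. Here every KO value lay above every control value. Groups did not overlap for 31.1% of the single genes tested at E16.5, so neither this separation nor that of the acinar sums stands out. The mean ratio was 0.284% ± 0.0360 in KO and 0.224% ± 0.0246 in control pancreata (SD, n = 3 each), 1.27-fold, with a two-sided exact permutation p of 0.1, the smallest that 3 against 3 allows. This ratio was chosen after the values had been seen. Reg3d was 0.0113% ± 0.000571 of the acinar sum in KO and 0.0103% ± 0.00179 in control pancreata. With the acinar level as a covariate in edgeR the log2 fold change of Reg1 was 0.44 and that of Reg3d 0.30, and neither was called. Since that level separated the genotypes, such a fit cannot cleanly tell it from genotype. Without KO 01, and with no covariate, the log2 fold change of Reg1 was 0.037. KO 01 also had the highest summed level of 10 liver genes, 1955 CPM against 454 to 654 CPM in the other 5 pancreata, and the part of this in the Reg values was not tested. Of 15 pan-epithelial genes, 10 fell in KO pancreata and none rose, and with libraries scaled to these genes the log2 fold change of Reg1 was 0.18 and that of Reg3d -0.03, while the median of all genes moved to 0.42.

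In aged islets Reg1 was again the most abundant member, and its level differed widely between mice of the same genotype. Reg1 had 8.05, 43.8, 33.4, 2.73 and 25.1 CPM in KO islets 055, 122, 803, 812 and 845, against 6.87, 22.5, 6.68, 32.5 and 24.5 CPM in control islets 052, 826, 829, 857 and 858. Both groups held low and high mice, and the highest library had 16.1 times the level of the lowest. The means were 22.6 ± 17.2 CPM in KO and 18.6 ± 11.4 CPM in control islets (SD, n = 5 each). The log2 fold change of 0.29 had an SE of 0.607 (edgeR adjusted p 0.967). Reg3d had 0.154, 0.655, 1.43, 0 and 0.474 CPM in KO islets, against 0.0887, 0.425, 0.163, 0.767 and 0.396 CPM in control islets, which gave 0.63 ± 0.718 on the log2 scale (SE; adjusted p 0.912 in edgeR). Without KO 803 this value was -0.19. No read of Reg4 was counted in any of the 10 islet libraries, 261666900 reads in all, which allows a level of up to 0.0115 CPM over the group (3 counts, counting error only).

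A single mouse stood apart in the other 4 members. Reg2 had 0, 1.16, 17.5, 0.0448 and 0.172 CPM in KO islets 055, 122, 803, 812 and 845, against 1.11, 0.934, 0.228, 0.871 and 0.238 CPM in control islets 052, 826, 829, 857 and 858. KO 803 was far above every other mouse, and 3 of the other 4 KO islets lay below all control islets. Reg3b, the pancreatitis-associated protein, had 3, 5, 414, 0 and 1 reads in KO islets in the same order, against 17, 4, 2, 2 and 5 reads in control islets. Reg3g had 65 reads in KO 803 and 1 read in KO 812, none in the remaining KO islets, and 1 read in control 829 alone among the control islets. Reg3a had 52 reads in KO 803 and 0 or 1 read in each of the other 9. In every one of these genes the same library was the high one.

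The size of the excess was set against the next library. Reg2 in KO 803 was 15.1 times the next highest library (95% interval 10.5 to 22.6, exact binomial and for counting error only), and Reg3b was 16.4 times (10.1 to 28.4). Reg3g was 43.4 times (7.52 to 1741) and Reg3a 36.1 times (6.19 to 1451), each against a library with 1 read. Reg3d in KO 803 was 1.87 times the next library (1.11 to 3.26), and Reg1 there was below KO 122. Reg2, Reg3a, Reg3b and Reg3g together made up 48.9% of the 2279 Reg reads in KO 803 (Wilson 95% interval 46.9 to 51.0), against 1.00% to 3.17% in the other KO islets and 1.72% to 21.1% in control islets. The value of 21.1% belonged to control 052, where 42 of 199 Reg reads were of these genes.

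**Figure D2:**
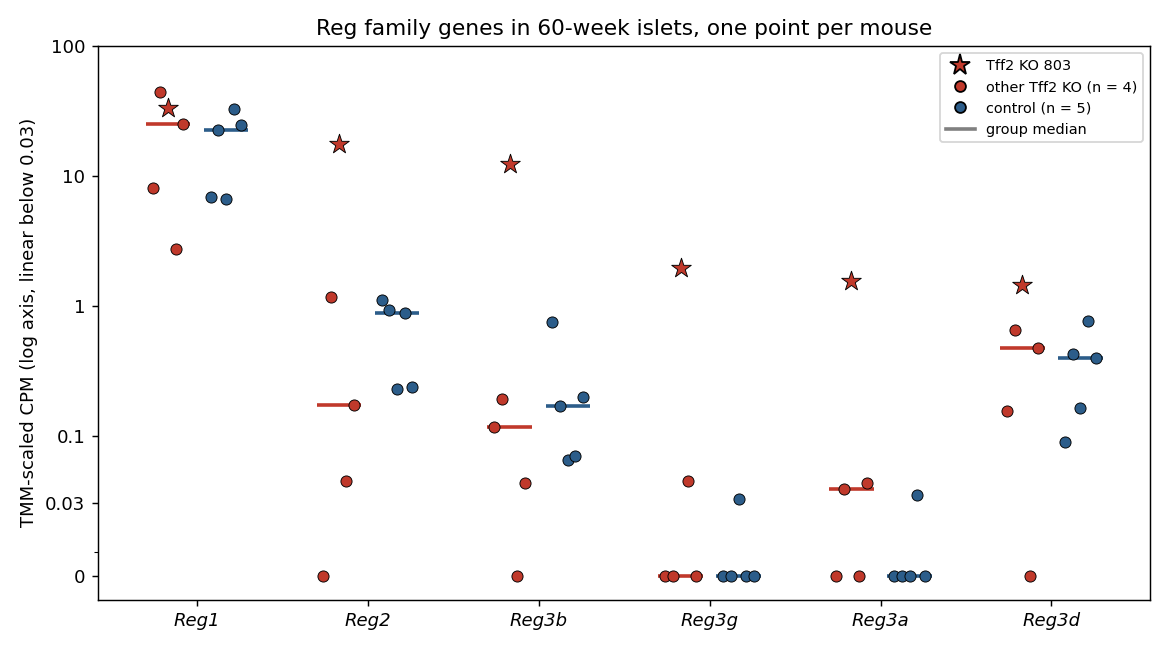
Levels of 6 Reg genes in 60-week islets, in TMM-scaled CPM on an axis that is logarithmic above 0.03 and linear below it, with KO mice left of control mice for each gene, 1 point per mouse and bars at the group medians. KO 803 (star) had 17.5 CPM of Reg2 and 12.4 CPM of Reg3b, where no other mouse exceeded 1.16 and 0.754 CPM, and was not the highest for Reg1.

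Among all genes the 4 were the ones in which KO 803 stood furthest from the rest. Genes were ranked by their level plus 0.3 CPM over the highest of the other 9 islet libraries plus 0.3 CPM, a measure chosen after the values of this library had been seen. Reg2, Reg3b, Reg3g and Reg3a took ranks 1 to 4 of 24091, with ratios of 12.2, 12.0, 6.51 and 5.40. The next gene, Dpt (dermatopontin, an extracellular matrix protein), had a ratio of 1.90, and Reg3d stood at rank 9 with 1.63. In the other libraries the leading gene was never a Reg gene and its ratio ran from 1.44 in control 829 to 7.61 in KO 845. The same 4 genes led with 0.1 or 1 CPM added, and with library totals in place of TMM.

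**Figure D3:**
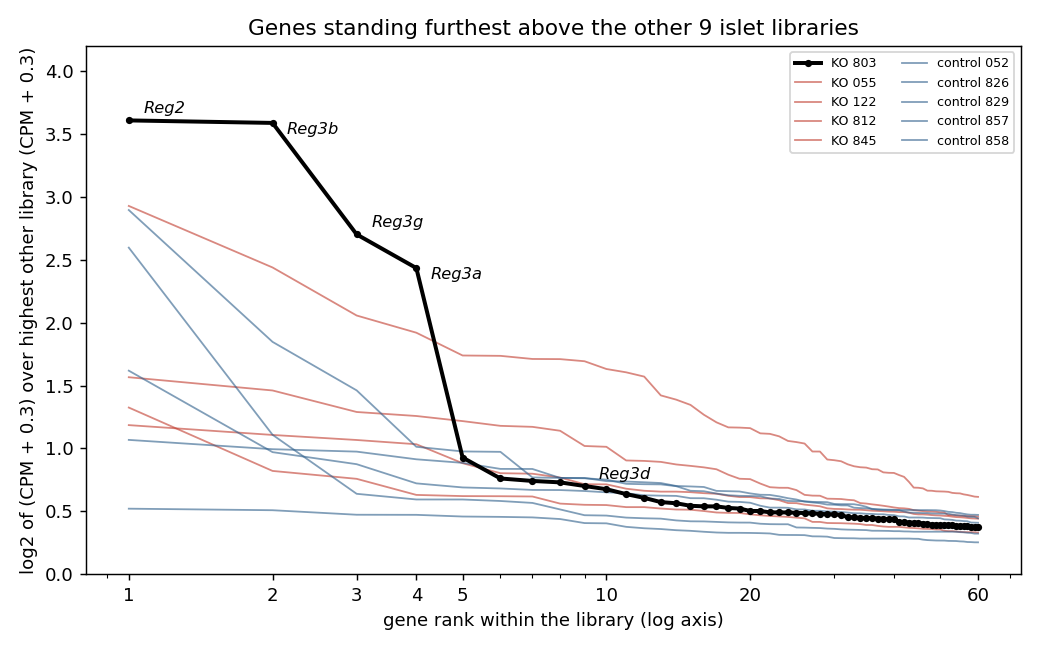
The 60 genes standing furthest above the other islet libraries, for each of 10 libraries; the horizontal axis is the rank within the library (log axis) and the vertical axis the log2 ratio of CPM plus 0.3 to the highest other library plus 0.3. In KO 803 (black) Reg2, Reg3b, Reg3g and Reg3a hold ranks 1 to 4, and the curve then drops to 1.90-fold at rank 5 (0.93 on the log2 axis).

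Other genes of KO 803 were read against the same libraries. Its acinar enzyme sum, 1557 CPM, lay within the 176 to 2572 CPM of the other 9, and it was the highest library for 0 of 28 acinar enzyme genes (those averaging 0.3 CPM or more) and for 0 of 20 islet endocrine genes. Its islet endocrine sum was the lowest of the 10, 167724 CPM against 171607 to 205112 CPM. The fibroblast and pericyte sum was the highest, 615 CPM against 416 to 550 CPM, with 6 of 10 genes highest there, and the macrophage sum was the highest too, 156 CPM against 126 to 153 CPM, with 3 of 12 genes highest there. The part of these cell types in the Reg levels was not tested. Stat3, the transcription factor that relays interleukin-6 type signals, had 202 CPM in KO 803 and 152 to 172 CPM in the other 9. It was 1 of 2 genes of 15 on the list of Reg-inducing cytokines, receptors and STAT3 signalling that peaked in this library. The other was the cytokine receptor Il10rb at 24.0 CPM against 19.8 to 22.1 CPM. The sum of the full list in KO 803, 1253 CPM, lay within the 1211 to 1297 CPM of the other 9. Socs3, a feedback inhibitor induced by STAT3, had 13.6 CPM there against 9.85 to 83.0 CPM. Of 12 acute-phase and STAT3 response genes averaging 0.3 CPM or more, Lrg1 and Steap4 peaked in KO 803, at 1.23 and 16.6 CPM, against at most 1.21 and 14.3 CPM in the other 9. The sum of this full list was 257 CPM in KO 803, within the 209 to 477 CPM of the other 9. What share of all genes peaked in KO 803 was not counted, so these counts per list have no background. Nupr1, a stress-response regulator, was lowest there, at 35.8 CPM against at least 45.4 CPM elsewhere.

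The comparison of KO with control islets turned on that mouse for Reg2. Reg2 averaged 3.77 ± 7.67 CPM in KO and 0.676 ± 0.414 CPM in control islets (SD, n = 5 each), a log2 fold change of 2.57 with an unadjusted p of 0.0625 and an edgeR adjusted p of 0.708. Without KO 803 the KO mean was 0.343 ± 0.547 CPM (SD, n = 4) and the log2 fold change -0.89. Limma-voom with sample quality weights, with all 10 libraries, gave -0.22. In edgeR 0 of the 3 tested members were called and 0 had an unadjusted p under 0.05, with 0.155% of 14219 genes called and 7.18% at an unadjusted p under 0.05, and DESeq2 and limma-voom also called none. Reg3a, Reg3b and Reg3g did not pass the filter, and with no filter, which let in 6 members, 4 had an unadjusted p under 0.05 and 0 were called. The 7.18% is for filtered genes and is no background for these 4. Without the share of all genes in the unfiltered fit, the 4 are no result about the family. KO 803 held 52 of 54 KO reads of Reg3a, 414 of 423 of Reg3b and 65 of 66 of Reg3g. Any excess of these genes in KO islets therefore rests on that mouse. The edgeR dispersions of Reg2, Reg3d and Reg1 lay at the 99.99th, 99.86th and 99.75th percentile of all genes tested in islets. In pancreata those of Reg1 and Reg3d lay at the 90.61st and 93.19th percentile. The coefficient of biological variation was 0.671 for Reg1 in islets and 0.223 in pancreata.

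**Figure D4:**
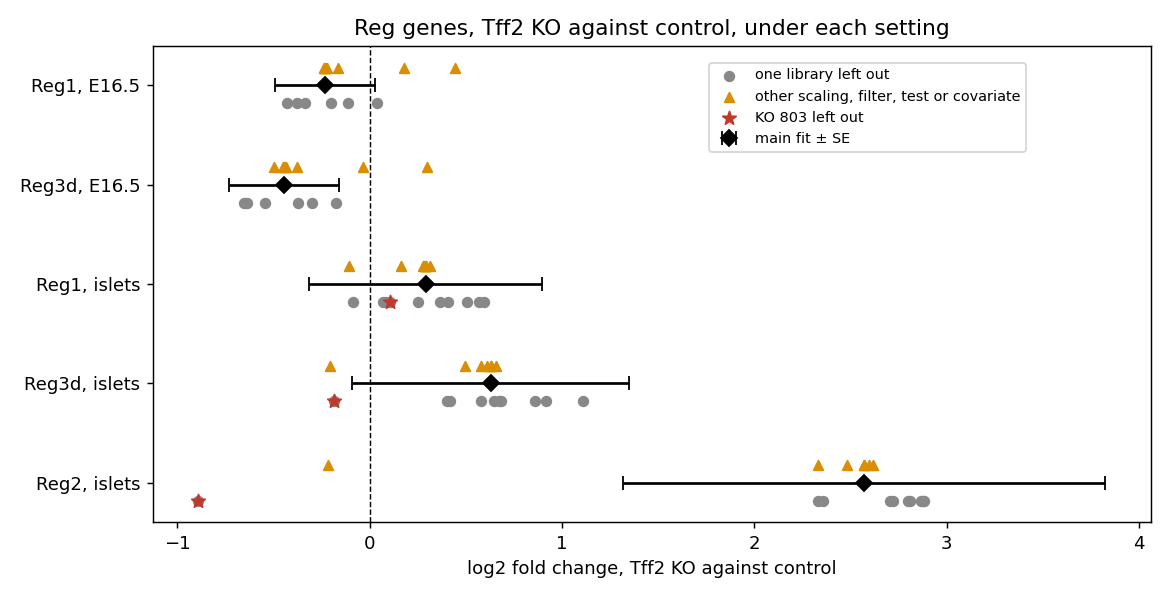
Log2 fold change of KO against control for each tested Reg gene, in E16.5 pancreata (upper 2 rows) and islets (lower 3 rows), with the edgeR value ± SE (diamond), other analysis settings (triangles) and fits with 1 library left out (circles; star, KO 803 left out). The value for Reg2 is 2.57 with all libraries and -0.89 without KO 803, and the values for Reg1 and Reg3d lie on both sides of 0 in both tissues, except that leaving out single pancreata kept Reg3d below 0.

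Across islets Reg1 followed the acinar enzyme genes. Over the 10 islet libraries the level of Reg1 and the acinar sum, both as log2 of CPM plus 1, had a Pearson r of 0.948 (permutation p 7.0e-05, 0.00063 adjusted over 9 relations) and a Spearman rho of 0.794 (permutation p 0.00829, adjusted 0.0746). Leaving out KO 812 and control 052, the libraries farthest from the median acinar sum, gave r = 0.913. Within the 5 KO islets r was 0.944 and within the 5 control islets 0.967. Points share their library and its depth. Reg3d had r = 0.718 with the acinar sum (permutation p 0.0196, adjusted 0.0882), 0.541 without the 2 farthest libraries and 0.873 without KO 803. Reg2 had r = 0.306 (permutation p 0.337, adjusted 0.830). None of the 3 passed the adjusted threshold with the sums of duct or macrophage genes. As a share of the acinar sum, a measure chosen after the values had been seen, Reg1 was 1.59% ± 0.478 in KO and 1.41% ± 0.321 in control islets (SD, n = 5 each). The exact permutation p for the log2 ratio was 0.651, two-sided. The lowest share was 0.830% in KO 055 and the highest 2.14% in KO 803.

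**Figure D5:**
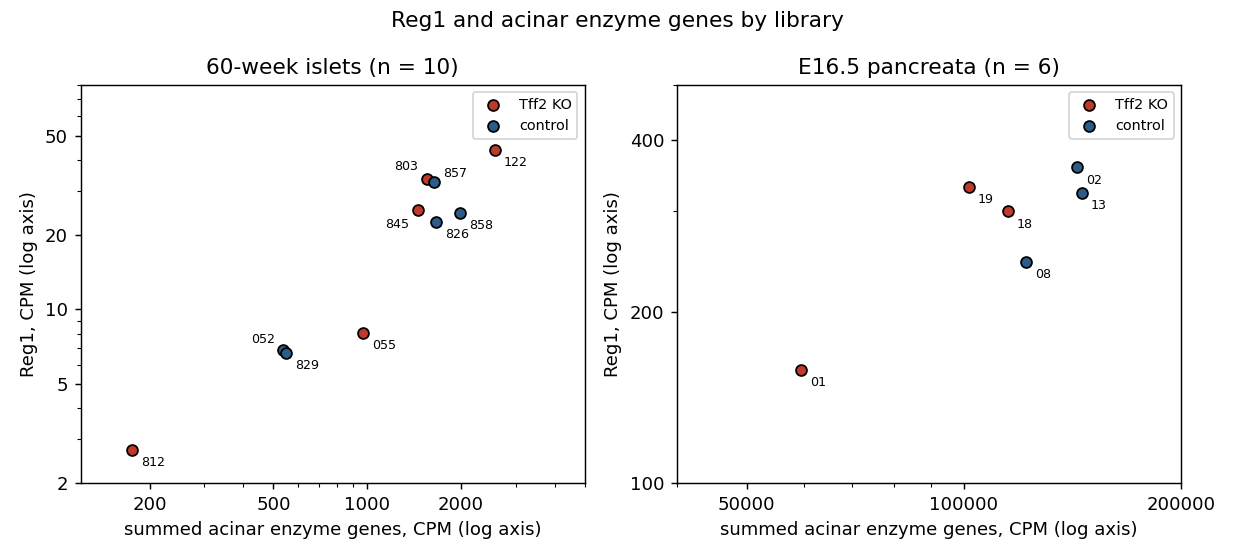
Reg1 against the summed acinar enzyme genes, both in CPM on log axes, in 60-week islets (left) and E16.5 pancreata (right), with 1 numbered point per library. In islets Reg1 runs from 2.73 CPM in KO 812 to 43.8 CPM in KO 122 along with the acinar sum (r = 0.948), and in pancreata the KO points lie left of the control points.

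Reg1 and Reg3d were lower in control islets than in control pancreata. In the fit over all 16 libraries, the difference of Reg1 was -3.79 on the log2 scale (SE 0.610, adjusted p 1.93e-05 in edgeR). That of Reg3d was -4.98 (SE 0.549, adjusted p 2.09e-07 in edgeR). These were 2 of 3 tested members, and 85.9% of 15823 genes were called in this contrast, 43.6% lower. Tissue, age, isolation and count table differ together between these groups and cannot be told apart. Sex may differ as well, since the islets came from males and the sex of the embryos is not given here. Reg2 had 0.676 ± 0.414 CPM (SD, n = 5) in control islets and 3 reads in the 3 control pancreata together. Its log2 fold change was 3.76 with an edgeR adjusted p of 0.183, and 3.74 with an adjusted p of 0.0144 when KO 803 was left out of the shared estimate of spread. Reg3g fell below the filter in that fit, and with no filter it was called as lower in control islets. The 30 acinar enzyme genes had a median log2 fold change of -5.13, with 25 lower and 1 higher. Against the acinar sum, genotypes together, Reg1 was higher in islets, with no overlap. Its share was 1.50% ± 0.396 in islets (SD, n = 10) and 0.254% ± 0.0428 in pancreata (SD, n = 6). For the log2 ratio the exact two-sided permutation p was 0.000125, the smallest possible. This ratio, too, was chosen after the values had been seen. With the mean of log2 enzyme levels in place of their sum, a measure that weights all enzymes equally, the log2 difference was 0.28 in place of 2.53, with an exact permutation p of 0.274. The KO effect did not differ detectably between tissues for any of the 3 members in edgeR, with interaction log2 values of 0.54 for Reg1, 2.93 for Reg2 and 1.11 for Reg3d and adjusted p of 0.779, 0.836 and 0.480. Here 0 of 3 had an unadjusted p under 0.05, against 22.1% of all genes, and 7.19% of genes were called. The 95% interval, again normal and so somewhat narrow, ran from -1.13 to 2.21 for Reg1 and from -0.51 to 2.72 for Reg3d. For Reg2 it ran from -8.45 to 14.3, with 5 reads in the 6 pancreata, so its value cannot show a difference or the lack of one.

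Upstream and neighbouring genes of the pathway were read in the same fits. Of 22 Reg-inducing cytokines, receptors and STAT3 signalling genes, the filter kept 16 at E16.5 and 15 in islets. None was called in either tissue in KO against control by edgeR, DESeq2 or limma-voom, and 1 at E16.5 and 2 in islets had an unadjusted p under 0.05 in edgeR. Their median log2 fold change was 0.04 at E16.5 and -0.06 in islets, against -0.00 over all genes in both. Of all genes tested, edgeR called 6.43% at E16.5 and 0.155% in islets, and 25.4% and 7.18% had an unadjusted p under 0.05. Without KO 01 1 gene of the list was called higher at E16.5, and with libraries scaled to pan-epithelial genes 12 were, among the shift of all genes given above. That scaling called 9986 of all 14914 genes at E16.5, so counts under it are no result about a list. Of 14 tested acute-phase and STAT3 response genes, Steap4, a metalloreductase, rose at E16.5 by a log2 fold change of 0.99, while Nupr1, a stress-response regulator, and Clu, the extracellular chaperone clusterin, fell by 0.53 and 0.59. Their edgeR adjusted p were 0.0273, 0.0278 and 0.0331. DESeq2 called 3 of the 14 higher and 2 lower, and limma-voom 1 higher and 2 lower. In edgeR 8 of the 14 had an unadjusted p under 0.05. With the pan-epithelial scaling none of this list was lower and 7 were higher, again among the 9986 genes called with it. In islets 0 of 12 were called, and 0 had an unadjusted p under 0.05 in edgeR, and DESeq2 and limma-voom called none. No gene of any list was called at E16.5 in edgeR once control 02 or control 13 was left out. Ptf1a, the acinar transcription factor of the PTF1 complex, fell at E16.5 by 0.26 (SE 0.0543, edgeR adjusted p 0.0362). It was the 1 gene called of 8 acinar transcription factors in edgeR, where 3 had an unadjusted p under 0.05. DESeq2 called 3 of the 8 lower and limma-voom 1. Without KO 01 none of the 8 was called in edgeR. With the pan-epithelial scaling 0 were lower and 5 higher, among the 9986 genes called with it. Reads of Ptf1aos, the antisense neighbour of Ptf1a, could not be told from those of Ptf1a, since the use of strand in counting is not stated.

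Genes whose levels across islets were most like each member were listed as a description. Likeness was Pearson r of log2 CPM plus 1 over the 10 islet libraries, centred on the genotype means, among 13171 genes averaging 1 CPM or more. For Reg1 they were Spink1 (r = 0.977), the pancreatic trypsin inhibitor, Klk1 (0.975), tissue kallikrein, and Dmbt1 (0.974), a secreted scavenger receptor protein. Their highest library was KO 122 for the first 2 and KO 803 for Dmbt1. For Reg2 they were Reg3b (0.960), Scin (0.939), an actin-severing protein, and Enpp5 (0.935). Reg3d came closest to Cnp (0.948), Zfp27 (0.938) and Tctex1d2 (0.933). All 6 of these had their highest level in KO 803. Outside Reg3b their range was narrow, such as Scin from 1.30 to 2.18 CPM, and each peaked in the same mouse.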

How the data were processed

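The authors deposited unnormalised counts of reads for each gene and a gene length in kb. STAR 2.6.0, HTSeq 0.11.1, Trimmomatic and the build mm10 are named, without roles, in the submitters' processing notes, and no source used here states the strand setting. Per the labels' protocols, the library kit was Kapa mRNA HyperPrep. From the counts, edgeR 4.0.16 (R 4.3.3) gave quasi-likelihood F tests with TMM scaling, filterByExpr defaults and Benjamini-Hochberg adjustment over all genes tested, at 0.05 on the adjusted p, within each tissue and over 16 libraries. All pairs of libraries within a group differed by more than sampling noise (chi-square per degree of freedom of at least 5.09). Scripts were tested on simulated data. Alternatives covered scaling, filter, DESeq2 1.42.0, limma 3.58.1 (voom), a robust fit, an acinar covariate, pseudocounts and each library left out. The members, lists and rules for naming genes, namely all members, Tff2, list members past the threshold and the 3 genes most like each member, were chosen with earlier results of these data known. Genes named for KO 803 were chosen after its values were seen.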

Additional observations from a re-analysis of the deposited data

Results flagged for a closer look

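Each Reg gene with reads in islets was examined in each islet group of 5 for a mouse far from the others by Dixon's test. Its rate of about 1 flag in 20 groups holds for normally distributed values, which low counts with many zeros are not. Of 12 groups examined, 7 were flagged. This count cannot be set against that rate, and these genes and mice are not independent. Among KO islets the mouse was 803 each time, with 17.5 CPM of Reg2, 12.4 CPM of Reg3b, 1.94 CPM of Reg3g and 1.55 CPM of Reg3a. Among control islets it was 052 for Reg3b, at 0.754 CPM. Control 857 was picked out for Reg3a at 0.0348 CPM and control 829 for Reg3g at 0.0326 CPM, each of which is 1 read where the other control islets had none.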

How the results depend on the processing

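No Reg gene was called in KO against control, or in the difference between tissues, under any alternative run. No paired analysis was possible because animal numbers are not shared between groups and no litters are given. The number of genes called at E16.5, 959, became 1550 with DESeq2, 561 with the acinar covariate, 9986 with pan-epithelial scaling and 0 to 1035 with 1 library left out (0 without control 02 or 13, 4 without control 08). With library totals the same comparison gave 779 higher and 179 lower, against 560 and 399 with TMM. The interaction gave 299 higher and 608 lower with library totals, against 623 and 514 with TMM, and islets against pancreas 5550 and 7972 against 6703 and 6891. In islets 22 became 112 with DESeq2 and 5 to 26 with 1 library left out, and for the interaction 1137 became 515 to 1186. Directions turned as follows. At E16.5 Reg1 was 0.44 with the acinar covariate, 0.18 with pan-epithelial scaling and -0.43 to 0.037 with 1 library left out, and Reg3d 0.30 with the covariate. In islets limma-voom gave -0.11 for Reg1, -0.22 for Reg2 and -0.21 for Reg3d, and -0.43 for the Reg2 interaction. With 1 library left out the islet values ran from -0.087 to 0.59 for Reg1, -0.89 to 2.88 for Reg2 and -0.19 to 1.11 for Reg3d, and the Reg2 interaction from -0.52 to 5.84. The causes were not tested. Of 9 correlations 1 passed, and 2 with a pseudocount of 0.1, which added Reg3d with acinar enzymes (r = 0.863), and 1 to 2 with a library left out. Signs of uncalled correlations turned for Reg1 with duct (0.106) and macrophage genes (0.0937) on library totals, Reg2 with duct (-0.0148) at a pseudocount of 0.1 and Reg3d with duct (-0.0196) after centring on genotype. With 1 library left out they ran from -0.327 to 0.00115 for Reg1 with duct and -0.294 to 0.138 with macrophage genes, from -0.527 to 0.448 and -0.615 to 0.324 for Reg2, and from -0.328 to 0.289 and -0.288 to 0.312 for Reg3d. Depth limits Reg2, Reg3a, Reg3b, Reg3g and Reg4, where most libraries had fewer than 10 reads.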
